A study of Mus musculus with 24 samples.

Results

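The 10 genes described here are imprinted genes with known roles in growth: Dlk1, Meg3, Rian, Mirg, H19, Peg3, Mest, Plagl1, Cdkn1c and Grb10. They were chosen by name, the values of their transcript entries were summed by gene symbol, and all 10 were found among the 25385 genes listed in each library. RNA-seq was made from mesenchymal stem cells (MSC) of mouse marrow, stromal cells that can form bone or fat cells in culture. The 24 libraries formed 8 groups of 3. Cells were undifferentiated (day 0), in osteogenic medium (β-glycerophosphate and ascorbic acid) for 7 days, in the same medium for 15 days, or kept for 7 days in adipogenic medium, which held dexamethasone, indomethacin and insulin. In each state, 1 group received 100 nM 1,25(OH)2D3 (VD3, the hormonal form of vitamin D) for 24 hours and the other received ethanol vehicle. All groups came from the same kind of cryopreserved stock, expanded for at most 10 passages in MEM alpha with fetal bovine serum. No genotype, strain or donor age is given. Undifferentiated cells were taken at day 0 alone, so against day 0 the effect of a medium cannot be told apart from that of time in culture.

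An imprinted gene is read mainly from the copy inherited from one parent, under the control of DNA methylation set in the egg or sperm. Many imprinted genes are highly expressed before birth and are shut down in most tissues as growth slows, and paternally expressed members often promote growth where maternally expressed members restrain it. Dlk1, a membrane protein related to the Notch ligands, is known as preadipocyte factor 1 and as a brake on fat cell formation. These RNA values do not tell the 2 parental copies apart, so they say nothing of imprinting itself.

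Of the 10 genes, 1 was expressed well above the background of the libraries in every group: Grb10, the adaptor protein that binds the insulin and IGF1 receptors and dampens their signal. It reached 88.3 ± 7.34 RPKM on osteogenic day 15, against 32.7 ± 1.89 RPKM at day 0 (SD, n = 3 each, vehicle). Mest and H19 were low, at 0.177 to 3.24 RPKM by group. Both exceeded the background median in all 12 osteogenic libraries and were lower in adipogenic than in osteogenic cells on day 7, Mest less stably than H19. The other 7 genes, Dlk1 and Meg3 among them, exceeded the 95th percentile of the background in none of the 24 libraries.

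RefSeq places Grb10 on mouse chromosome 11, with 2 annotated starts in the table of promoter windows. The 2 windows are shown because the deposited values list 2 transcript entries for Grb10, 1 of which had 0 RPKM in all 24 libraries while the other carried the whole signal. The names in the files do not say which entry belongs to which start. Each window runs from 250 bases before the start to 50 after it, on the GRCm38.p6 build, and CpG dinucleotides, the sites of DNA methylation, are in capitals. The upstream window is chr11:12037371-12037670 and the downstream window is chr11:12027922-12028221, both on the minus strand.
Grb10 upstream: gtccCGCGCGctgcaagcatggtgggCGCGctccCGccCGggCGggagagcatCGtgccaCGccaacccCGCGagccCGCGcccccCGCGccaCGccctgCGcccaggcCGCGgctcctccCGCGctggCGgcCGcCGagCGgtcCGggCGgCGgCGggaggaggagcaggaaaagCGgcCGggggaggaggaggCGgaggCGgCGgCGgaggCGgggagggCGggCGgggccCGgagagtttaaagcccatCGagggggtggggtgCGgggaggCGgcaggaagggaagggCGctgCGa
Grb10 downstream: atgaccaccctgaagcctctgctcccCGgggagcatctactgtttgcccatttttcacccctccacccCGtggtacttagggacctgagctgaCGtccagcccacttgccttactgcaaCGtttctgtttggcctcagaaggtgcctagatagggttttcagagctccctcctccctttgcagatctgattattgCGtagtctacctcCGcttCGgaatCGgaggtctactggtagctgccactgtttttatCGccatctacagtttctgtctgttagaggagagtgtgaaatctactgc
The upstream window held 45 CpG, more than 98.1% of the 32851 mouse promoter windows in the table, and the downstream window held 9, more than 54.2% of them.

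A window of Mest and the window of Dlk1 are shown as a pair of members of which Mest exceeded the background and Dlk1 did not. The Mest window, on chromosome 6, is chr6:30737800-30738099 on the plus strand, the second of 3 annotated starts. The Dlk1 window, on chromosome 12, is chr12:109452573-109452872 on the plus strand.
Mest: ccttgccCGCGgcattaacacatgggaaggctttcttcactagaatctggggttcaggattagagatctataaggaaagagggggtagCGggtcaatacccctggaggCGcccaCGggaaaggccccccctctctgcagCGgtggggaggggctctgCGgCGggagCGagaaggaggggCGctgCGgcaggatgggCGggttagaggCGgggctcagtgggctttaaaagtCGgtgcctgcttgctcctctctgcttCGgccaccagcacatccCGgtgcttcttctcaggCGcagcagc
Dlk1: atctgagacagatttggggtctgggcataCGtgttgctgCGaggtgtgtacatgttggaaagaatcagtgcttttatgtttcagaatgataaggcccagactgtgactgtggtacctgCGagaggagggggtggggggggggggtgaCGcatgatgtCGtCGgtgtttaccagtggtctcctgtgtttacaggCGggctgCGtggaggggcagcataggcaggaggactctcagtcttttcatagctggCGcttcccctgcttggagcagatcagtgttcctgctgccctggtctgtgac
These held 17 and 9 CpG, against a median of 7 over all windows. No measure of CpG number against level was computed. The Grb10 windows held 45 and 9, and the first window of Mest held 8. Windows of members that never exceeded the 95th percentile of the background held 26 (Plagl1), 13 (Meg3 and Peg3), 10 (Mirg), 1 (the other Meg3 window) and 0 (Rian). RefSeq had 12 windows for 8 of the 10 genes. On either strand, the nuclear receptor motif AGGTCA occurred once in 1 Meg3 window and in none of the other 11, and 16.3% of all windows held it. These matches describe letters only, and the windows were not set against any binding data.

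RPKM is a read count scaled to transcript length and library size, so levels can be compared between genes. In bulk RNA, fewer cells that express a gene and less RNA per cell cannot be told apart. The background was measured in each library as the median of 1497 olfactory, vomeronasal and taste receptor genes, families normally silent outside sensory tissue. A set of 5 day 0 libraries, all but VD3 replicate 2, stood apart, with a background median of 3.39 to 4.93 RPKM and an estimated 7.13 to 11.0 M reads. The other 19 libraries had 0.208 to 1.30 RPKM and 11.7 to 46.7 M reads, and day 0 VD3 replicate 2 had 0.456 RPKM and 38.8 M reads. Of 11 marrow stromal markers 8 reached 5 RPKM in a group, but Eng (endoglin) was at 0.129 to 1.55 RPKM by group. None of the 9 blood markers measured reached 5 RPKM, and their sum was 1.37 to 5.02 RPKM in differentiated and 9.78 to 14.2 RPKM in day 0 vehicle libraries. The 7 osteoblast markers summed to 675 to 746 RPKM in osteogenic day 7 vehicle libraries, against 62.2 to 71.2 RPKM in day 0 vehicle libraries, and the 7 adipocyte markers to 28663 to 31000 RPKM in adipogenic vehicle libraries, against 162 to 205 RPKM at day 0.

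A difference is given below as log2(RPKM + 1), which understates changes of low genes, with its standard error (SE) and its Benjamini-Hochberg adjusted p in limma over 21097 genes. A gene rose or fell where that adjusted p was below 0.05. Of the 10 genes 8 passed the filter of 1 RPKM in 3 libraries, and Mirg and Cdkn1c did not. The libraries of at least 1 RPKM were day 0 libraries for Dlk1 (4 of 4), Rian (4 of 4) and Peg3 (5 of 5), and 5 of 6 of them for Meg3 and 5 of 9 for Plagl1. Dlk1, Rian, Peg3 and Meg3 therefore passed the filter through the group in which they were high, which favours a fall against day 0 among them. The comparisons with day 0 share their day 0 libraries. The labels do not say that replicates were separate cultures, so p-values measure the spread between these libraries.

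Grb10 was highest in bone-forming cultures on day 15. On day 7, osteogenic and adipogenic vehicle cells averaged 44.8 and 40.1 RPKM, and their difference was not called. The osteogenic day 15 vehicle libraries had 96.6, 82.7 and 85.5 RPKM, the osteogenic day 7 vehicle libraries 42.7, 48.9 and 42.9 RPKM. Every day 15 library was above every day 7 library. The difference was 0.96 ± 0.09 (SE) log2, a 1.97-fold rise (adjusted p = 1.4e-07). In this comparison 2 of the 8 tested genes rose and 0 fell, against 6.87% higher and 6.47% lower among all genes tested (3.76% and 5.30% with median-ratio rescaling). Summed endothelial markers were also higher on day 15, at 11.8 to 14.5 RPKM against 2.98 to 3.50 RPKM on day 7, mainly through Kdr (12.4 against 2.77 RPKM on average), while Pecam1 (0.11 and 0.07 RPKM) and Cdh5 (0.22 and 0.25 RPKM) were near 0 on both days. The part of these markers in the Grb10 difference was not tested. VD3-treated libraries had 79.3, 76.6 and 89.4 RPKM of Grb10 on day 15 against 38.8, 38.0 and 45.7 RPKM on day 7 (0.99 log2, adjusted p = 7.3e-08).

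Against day 0, Grb10 rose in all 3 differentiated states. The adipogenic day 7 vehicle libraries had 38.2, 40.5 and 41.6 RPKM, against 30.55, 34.2 and 33.2 RPKM in the day 0 vehicle libraries, which lay below every differentiated library. Its log2 difference from day 0 was 0.44 ± 0.09 on osteogenic day 7 (adjusted p = 0.00034), 1.41 ± 0.09 on osteogenic day 15 (7.6e-11) and 0.29 ± 0.09 on adipogenic day 7 (0.0077). The median over all genes tested was -0.46, -0.55 and -0.83 log2 in these comparisons, so Grb10 and the bulk of the genes lay on opposite sides of 0. Among VD3-treated libraries, with day 0 replicate 2, the one of low background, as the lone day 0 library, the rises were 0.93, 1.92 and 0.99 log2. Adipogenic and osteogenic cells on day 7 had 40.1 ± 1.75 and 44.8 ± 3.47 RPKM of Grb10, a difference of -0.16 log2 that did not pass the test (adjusted p = 0.22, 95% interval -0.35 to 0.04).

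With VD3, Grb10 was lower at day 0 and was not called in the other states. The day 0 VD3 libraries had 23.0, 20.8 and 24.4 RPKM, all below the 30.55, 34.2 and 33.2 RPKM of day 0 vehicle libraries. The difference was -0.50 ± 0.09 log2 (adjusted p = 0.00063), and -0.62 log2 with replicate 2 as the lone VD3 library. The latter sets a library of low background against vehicle libraries of high background, so it is no check on the background. The difference was -0.29 log2 after median-ratio rescaling and did not pass there (adjusted p = 0.12), while the median of all genes was -0.27 log2 before and -0.12 log2 after that rescaling. In the differentiated states the log2 differences with their 95% intervals were 0.08 (-0.11 to 0.27) in adipogenic cells, -0.13 (-0.33 to 0.06) on osteogenic day 7 and -0.11 (-0.30 to 0.08) on osteogenic day 15. The VD3 effect in adipogenic cells was above that at day 0 by 0.59 ± 0.13 log2 (adjusted p = 0.013), where the median of all genes was 0.31 log2. In this test 1 of the 8 tested genes, Grb10, was called, against 3.47% of all genes, and median-ratio rescaling ended that call too (0.29 log2, adjusted p = 0.32), while quantile normalization (0.58 log2, adjusted p = 0.0077) and background subtraction (0.56 log2, 0.016) kept it. The same difference between osteogenic day 7 and day 0 was 0.37 ± 0.13 log2 and did not pass (adjusted p = 0.12), and none of the 8 genes was called in it, against 2.55% of all genes. At an unadjusted p below 0.05 the count was 4.

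**Figure D1:**
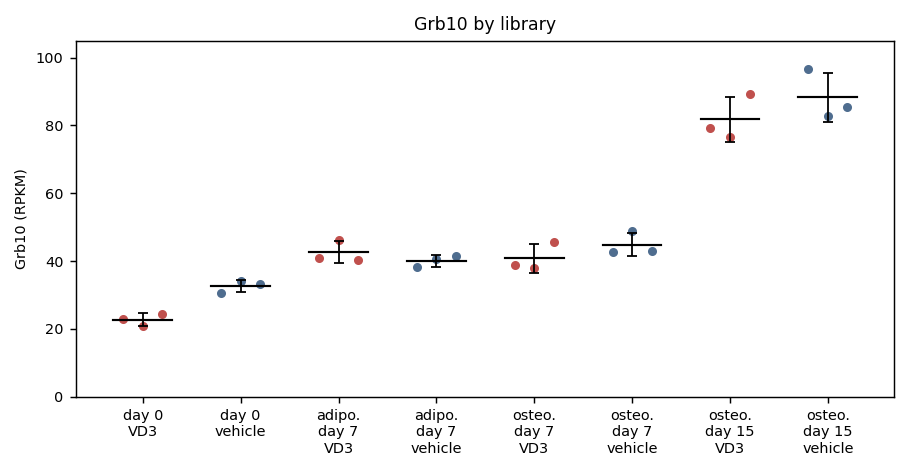
Grb10 in RPKM (vertical axis) in each of the 24 libraries by group, with VD3-treated groups in red and vehicle groups in blue; black bars are the mean and SD of 3 libraries. The osteogenic day 15 libraries sit at 76.6 to 96.6 RPKM, above the other 18, and the day 0 VD3 libraries at 20.8 to 24.4 RPKM, below them all.

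By group, Grb10 was highest on osteogenic day 15 with vehicle (88.3 ± 7.34 RPKM) and with VD3 (81.8 ± 6.75), which overlapped. Next came osteogenic day 7 with vehicle (44.8 ± 3.47), adipogenic day 7 with VD3 (42.5 ± 3.26), osteogenic day 7 with VD3 (40.8 ± 4.27) and adipogenic day 7 with vehicle (40.1 ± 1.75). Neighbours among these 4 overlapped. Day 0 vehicle (32.7 ± 1.89) and day 0 VD3 (22.7 ± 1.79) came last and overlapped neither the groups above them nor each other. Among 8792 genes of at least 5 RPKM in a group, the 3 whose log2 levels followed Grb10 most closely over the 24 libraries were Aldh1l2, a mitochondrial folate enzyme (Pearson r = 0.973), the zinc finger gene Zfp110 (0.968), and Iars, the isoleucyl-tRNA synthetase (0.959). These libraries share groups, so the coefficients describe the group pattern, which for Aldh1l2 was 38.5 RPKM on osteogenic day 15 against 6.62 RPKM at day 0 (vehicle).

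Among the receptors, substrates and relatives of Grb10, calls went in both directions. Of 10 such genes 8 were tested. On osteogenic day 15 against day 7, 1 rose and 1 fell, against 6.87% higher and 6.47% lower among all genes. The median was -0.13 log2 (0 for all genes). Irs1, the insulin receptor substrate, rose to 110 ± 1.10 RPKM against 89.8 ± 9.06 RPKM (0.29 log2, adjusted p = 0.020), with an adjusted p of 0.051 to 0.10 without any 1 of 5 of the 6 libraries, all but osteogenic day 7 replicate 3, and a difference of 0.03 log2 among VD3-treated libraries. Nedd4, the ubiquitin ligase that Grb10 binds, fell to 170 ± 4.96 RPKM against 242 ± 8.07 RPKM (-0.51 log2, adjusted p = 1.9e-05). Between adipogenic and osteogenic cells on day 7, where Grb10 gave no call, 3 rose and 5 fell, against 12.4% higher and 25.4% lower among all genes. The insulin receptor gene Insr had 35.2 ± 3.26 RPKM in adipogenic and 7.10 ± 0.203 RPKM in osteogenic cells (2.16 log2, adjusted p = 1.7e-15). Igf1r, the IGF1 receptor, differed in the opposite direction, with 1.66 ± 0.459 RPKM in adipogenic and 7.25 ± 0.549 RPKM in osteogenic cells (-1.65 log2, adjusted p = 4.3e-11). Irs1 had 22.6 ± 1.82 and 89.8 ± 9.06 RPKM (-1.94 log2, adjusted p = 4.7e-15) and Igf1, the growth factor, 5.09 ± 1.44 and 13.6 ± 2.57 RPKM (-1.27 log2, adjusted p = 7.8e-05), both lower in adipogenic cells. The call of Igf1 was lost with its largest transcript in place of the sum (-0.28 log2, adjusted p = 0.72).

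Mest and H19, both from other imprinted domains, were low but detectable in bone-forming cells. Mest encodes an enzyme of the α/β-hydrolase family that is paternally expressed and linked to fat cell size in mice. The osteogenic day 7 vehicle libraries had 1.94, 1.54 and 1.97 RPKM, and the osteogenic day 15 vehicle libraries 2.58, 2.21 and 2.77 RPKM. These lay above 97.9 to 99.9% of the sensory receptor genes of their own libraries, so Mest stood outside the background there. Adipogenic vehicle libraries had 0.685, 1.33 and 0.975 RPKM, above only 39.8 to 90.3% of those genes and below every osteogenic library. The difference of adipogenic from osteogenic day 7 cells was -0.51 ± 0.18 log2 (adjusted p = 0.029). It did not pass without replicate 1 or 3 of either vehicle group (-0.39 to -0.51 log2, adjusted p = 0.067 to 0.16), nor after median-ratio rescaling (-0.40, 0.11) or quantile normalization (-0.47, 0.13). Between osteogenic day 15 and day 7 the difference of Mest, 0.32 log2, did not pass either (adjusted p = 0.33).

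At day 0, Mest was measured most cleanly in VD3 replicate 2, the library of low background, with 2.85 RPKM, above 99.4% of its sensory receptor genes. The other VD3 libraries had 3.25 and 3.04 RPKM and the vehicle libraries 2.50, 2.79 and 4.42 RPKM, which lay within their own background (above 21.1 to 43.3% of those genes). Mest fell against day 0 on osteogenic day 7 (-0.57 ± 0.18 log2, adjusted p = 0.0094) and in adipogenic cells (-1.07 ± 0.18, adjusted p = 3e-05). The first was -0.38 log2 without day 0 vehicle replicate 3 (adjusted p = 0.083), and turned to 0.49 log2 with quantile normalization and to 1.31 log2 after subtraction of the background. The second turned to 0.018 and 0.36 log2 under those 2 settings. The subtraction set all day 0 vehicle values of Mest to 0, so it allowed no fall. Where replicate 2 stood alone for day 0 and VD3-treated libraries were compared, adipogenic cells still had less Mest (-0.74 log2, adjusted p = 0.034), while osteogenic days 7 and 15 differed by -0.18 and -0.32 log2, which did not pass (adjusted p = 0.79 and 0.52).

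H19 is a maternally expressed long noncoding RNA that neighbours Igf2. The osteogenic day 15 vehicle libraries had 1.72, 1.98 and 1.71 RPKM and the osteogenic day 7 vehicle libraries 1.07, 0.752 and 0.976 RPKM, without overlap. The difference was 0.54 ± 0.18 log2 (adjusted p = 0.045), close to the threshold, and it did not pass when any 1 of the 6 libraries was left out (0.47 to 0.59 log2, adjusted p = 0.067 to 0.17). The VD3-treated libraries had 1.90, 1.76 and 2.03 RPKM on day 15 and 1.40, 1.14 and 1.24 RPKM on day 7, also without overlap, but gave 0.36 log2 (adjusted p = 0.21). H19 was above the background median in all 12 osteogenic libraries and above the 95th percentile of the background in 6 of them.

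H19 was lower in adipogenic than in osteogenic cells. The adipogenic vehicle libraries had 0.257, 0.230 and 0.044 RPKM, all below the background median of their libraries. Against osteogenic day 7 this was -0.72 ± 0.18 log2 (adjusted p = 0.0019), and -0.77 log2 among VD3-treated libraries (adjusted p = 0.0011). In this comparison 0 of the 8 tested genes rose and 2, H19 and Mest, fell, beside those 12.4% and 25.4% of all genes tested. Those shares were 16.3% and 19.2% with median-ratio rescaling and 15.6% and 20.2% with quantile normalization. Summed skeletal muscle markers were higher in adipogenic cells, at 5.03 to 6.09 RPKM against 0.765 to 1.14 RPKM in osteogenic cells, mainly through Acta1 (5.18 against 0.61 RPKM on average), while Myod1 (0.08 and 0.10 RPKM) and Myog (0.10 RPKM in both) were near 0. The part of these markers in the H19 and Mest differences was not tested. At day 0, H19 was at 0.089 RPKM in VD3 replicate 2, against 0.556 and 0.429 RPKM in the other VD3 libraries and 1.08, 1.14 and 0.912 RPKM in vehicle libraries, all 6 under their background medians. It rose on osteogenic day 15 against day 0 (0.45 log2, adjusted p = 0.026), but not without replicate 3 of day 0 or replicate 2 of day 15 (0.41 log2 each, adjusted p = 0.082 and 0.078). The same difference was 1.41 log2 against the lone day 0 library of low background among VD3-treated libraries (adjusted p = 2.6e-05). Its fall with VD3 at day 0 (-0.61 log2, adjusted p = 0.025) did not pass without vehicle replicate 1 or 2 or VD3 replicate 2 (-0.45 to -0.59 log2, adjusted p = 0.061 to 0.077). After subtraction of the background the difference was 0 log2, since that set all 6 day 0 values to 0.

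**Figure D2:**
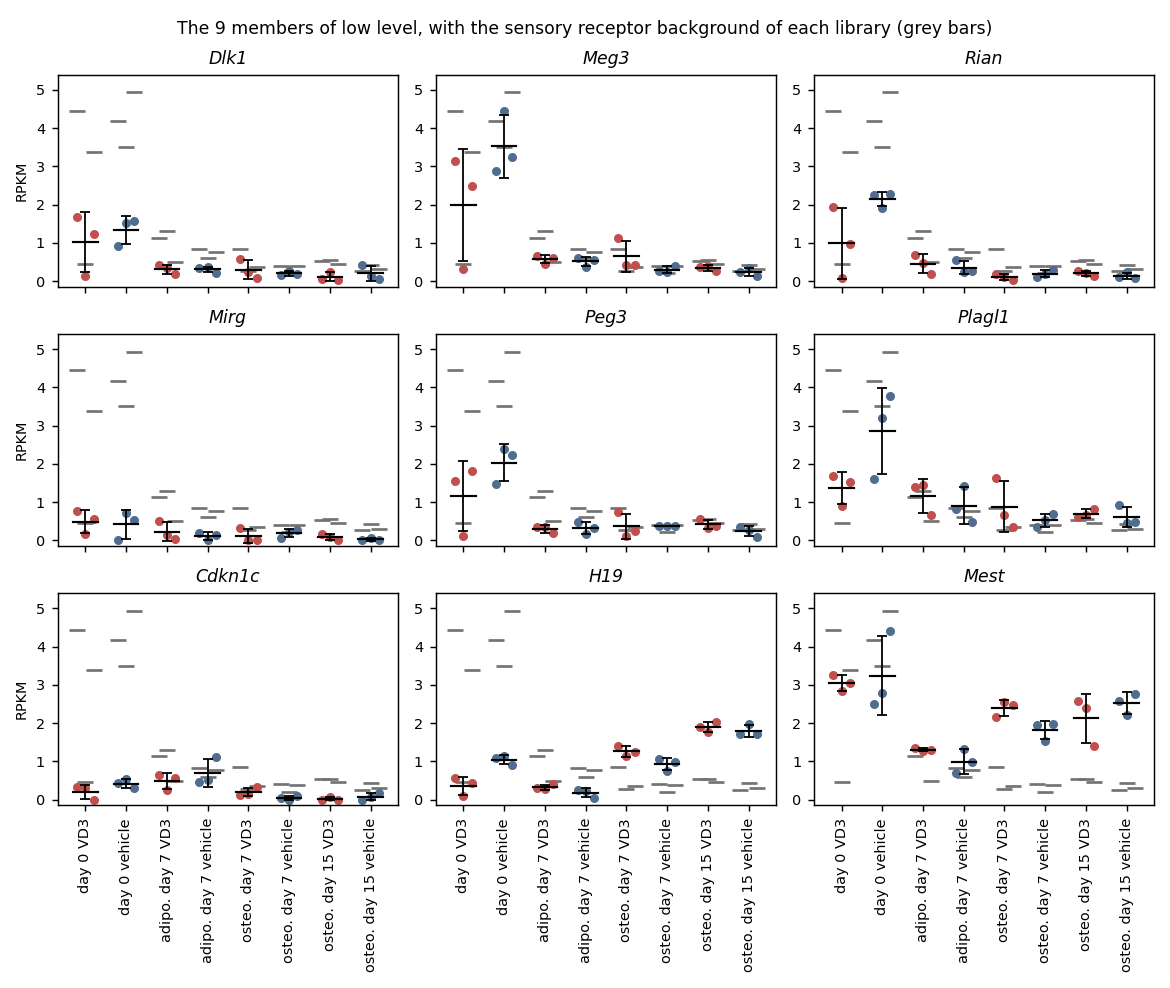
RPKM (vertical axis) of the 9 genes other than Grb10 in each of the 24 libraries by group, VD3 in red and vehicle in blue, with the mean and SD of 3 libraries in black and the median of sensory receptor genes of each library as grey bars. Mest lies at 1.40 to 2.77 RPKM and H19 at 0.752 to 2.03 RPKM in osteogenic libraries, above the grey bars, while the other genes stay at or below 1.64 RPKM in differentiated libraries; the grey bars reach 3.39 to 4.93 RPKM in 5 day 0 libraries.

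Of the 10 genes 4 lie in the Dlk1 domain on chromosome 12, and none of the 4 stood out from the background. In the order of the chromosome the domain holds Dlk1, the noncoding RNA Meg3, the retrotransposon-derived gene Rtl1, the noncoding RNAs Rian and Mirg, which host small nucleolar RNAs and microRNAs, and Dio3, the deiodinase that inactivates thyroid hormone. Dlk1 had 0.034 to 0.572 RPKM in the 18 differentiated libraries. At day 0 it had 1.67, 0.140 and 1.24 RPKM with VD3 and 0.907, 1.52 and 1.58 RPKM with vehicle, the vehicle values above only 3.01 to 9.49% of their sensory receptor genes. The low day 0 value, 0.140 RPKM, was that of VD3 replicate 2, the library of low background. Meg3 had 0.122 to 1.11 RPKM in the differentiated libraries, and at day 0 it had 3.13, 0.326 and 2.49 RPKM with VD3 and 2.89, 4.46 and 3.24 RPKM with vehicle. Rian spanned 0.019 to 2.27 RPKM and Mirg 0 to 0.768 RPKM over the 24 libraries. For all but Mirg the lowest day 0 value was again that of VD3 replicate 2. None of these 4 genes exceeded the 95th percentile of the background in any of the 24 libraries, and Dlk1 exceeded its median in 2, Meg3 in 7, Rian in 0 and Mirg in 1.

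Dio3, at the far end of that domain, was well above the background at day 0. The adipogenic day 7 vehicle libraries had 1.38, 1.40 and 1.21 RPKM, the osteogenic day 7 vehicle libraries 1.70, 1.07 and 1.00 RPKM and the osteogenic day 15 vehicle libraries 0.856, 0.677 and 0.775 RPKM, against 19.1, 24.3 and 27.2 RPKM in day 0 vehicle libraries. In day 0 VD3 replicate 2, where Dlk1 was at 0.140 RPKM, Meg3 at 0.326 and Rian at 0.072, Dio3 was at 26.2 RPKM. Dio3 fell in all 3 states against day 0, with differences of -3.44, -3.78 and -3.38 log2 on osteogenic day 7, osteogenic day 15 and adipogenic day 7 (adjusted p = 4.4e-14, 3.7e-15 and 3.6e-15). With VD3 it was higher on osteogenic day 7, at 2.95 ± 0.314 RPKM against 1.26 ± 0.386 RPKM (0.82 log2, adjusted p = 0.00049). Of the 45 small RNA genes hosted by the members 44 were listed, 31 of them at 0 in all libraries and none at 5 RPKM in a group.

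The remaining 3 genes were low as well. Peg3, a zinc finger protein of the paternal genome that affects body growth and maternal behaviour in mice, had 0.092 to 0.739 RPKM in the differentiated libraries and 1.48, 2.39 and 2.23 RPKM in day 0 vehicle libraries. In VD3 replicate 2 it was at 0.117 RPKM. Plagl1, a zinc finger transcription factor that restrains cell division, had 0.349 to 1.64 RPKM in differentiated libraries and exceeded the background median in 15 of 24 libraries, though never its 95th percentile. Cdkn1c, the cyclin-dependent kinase inhibitor p57, was highest in adipogenic vehicle libraries, with 0.474, 0.501 and 1.11 RPKM, which is above 24.5 to 70.7% of their sensory receptor genes. In osteogenic vehicle libraries it had 0 to 0.164 RPKM. It was not tested, since it missed the filter.

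**Figure D3:**
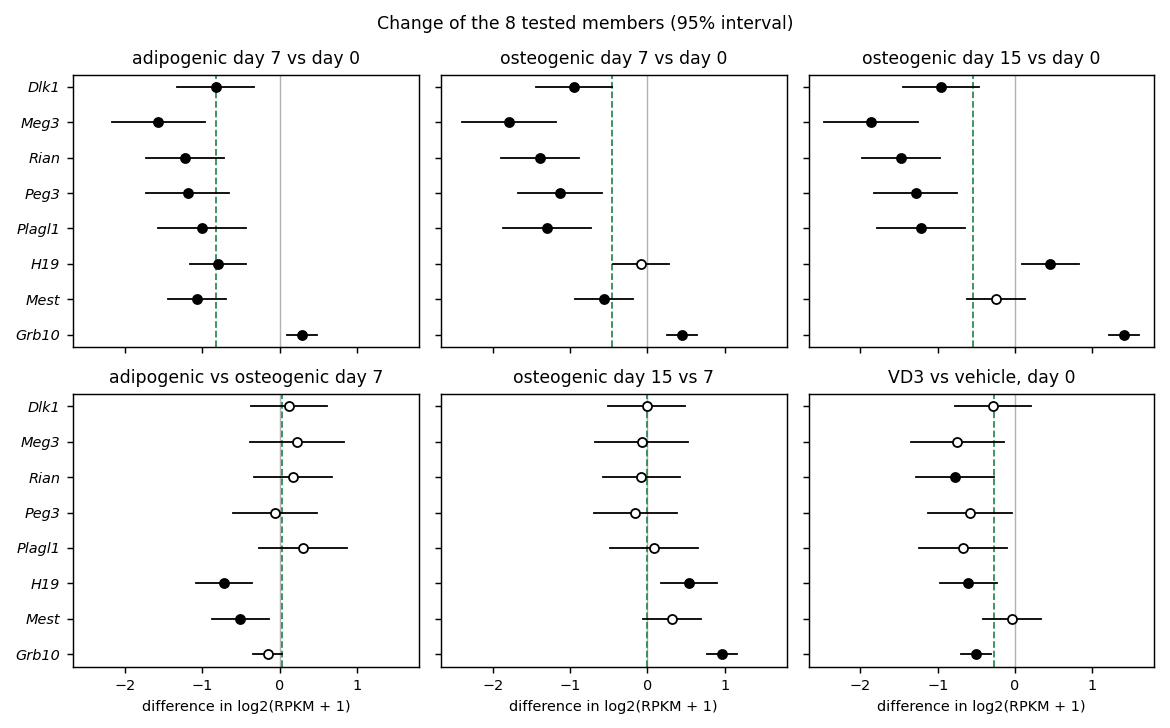
Difference in log2(RPKM + 1) (horizontal axis) of the 8 tested genes in 6 comparisons, with the 95% interval; filled points had an adjusted p below 0.05, the grey line is 0 and the green dashed line is the median of all tested genes. Grb10 lies to the right of the median in the 3 comparisons with day 0 (0.29 to 1.41 log2), and Dlk1, Meg3, Rian, Peg3 and Plagl1 lie at or to the left of it (-0.83 to -1.86 log2).

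Dlk1, Meg3, Rian, Peg3 and Plagl1 fell against day 0 in all 3 states, by 0.83 to 1.86 log2 (adjusted p between 1.9e-05 and 0.0036). So did most genes, and for all but Plagl1 the filter favoured this direction, as given above. With quantile normalization Meg3 alone of the 5 kept its calls (-0.65, -0.73 and -0.56 log2 on osteogenic day 7, osteogenic day 15 and adipogenic day 7, adjusted p = 0.0068, 0.0023 and 0.014). Dlk1 turned in all 3 states (0.10, 0.056 and 0.091 log2), Peg3 on osteogenic day 7 (0.071) and Plagl1 in adipogenic cells (0.070), and Rian was not called (-0.18 to -0.28). On osteogenic day 7, 1 of 8 tested genes rose and 6 fell, against 13.6% higher and 50.4% lower among all genes. On osteogenic day 15, 2 rose and 5 fell (17.5% higher and 53.4% lower among all genes), and in adipogenic cells 1 rose and 7 fell (13.2% and 65.5%). With quantile normalization the shares of all genes became 25.7% higher and 17.6% lower on osteogenic day 7, 29.0% and 20.5% on day 15, and 25.0% and 24.0% in adipogenic cells. With median-ratio rescaling they were 27.4% and 41.7%, 26.6% and 44.7%, and 23.8% and 48.0%.

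The 3 day 0 vehicle libraries behind these falls were all of high background and low depth. The part of either in the falls was not tested. Where VD3-treated libraries were compared and replicate 2 stood alone for day 0, the 5 genes differed from day 0 by -0.16 to 0.42 log2 and none passed the test in any of the 3 states (adjusted p = 0.15 to 0.99). In that setting 2 of the 8 tested genes rose and 0 fell on osteogenic days 7 and 15 alike, namely Grb10 and H19. In adipogenic cells 1 rose, Grb10, and 1 fell, Mest. Among all genes 6.97%, 10.9% and 12.0% were then higher and 2.51%, 6.04% and 15.6% lower. Subtraction of each library's background median, with values below it set to 0, left Grb10, H19 and Mest as the tested members. Of these, 3 rose and 0 fell on osteogenic day 7 and on day 15, and 1 rose and 0 fell in adipogenic cells (Grb10). All day 0 vehicle values of H19 and Mest were set to 0, so these 2 genes could not fall. Of the 13668 genes tested in that setting, 74.3%, 75.4% and 63.3% were called, and 63.7%, 62.4% and 40.3% were higher.

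With VD3 at day 0, 0 of 8 tested genes rose and 3 fell (Grb10, H19 and Rian), against 3.98% higher and 11.0% lower among all genes. With quantile normalization those shares were 6.48% and 4.76%, and with median-ratio rescaling 5.65% and 4.22%. The members called numbered 1 with quantile normalization, Grb10 (H19 was at -0.088 log2, adjusted p = 0.75, and Rian at -0.24 log2, 0.28), and 0 with median-ratio rescaling, where adjusted p was 0.12 for Grb10, 0.073 for H19 and 0.067 for Rian. Rian had 1.93, 0.072 and 0.966 RPKM in VD3 and 2.24, 1.92 and 2.27 RPKM in vehicle libraries, a difference of -0.78 log2 (adjusted p = 0.035). Rian reached 1 RPKM in every day 0 vehicle library but, with VD3, in replicate 1 only. It thus passed the filter mainly through the vehicle group, which favours a fall with VD3. Rian exceeded the background median in 0 of 24 libraries. Without VD3 replicate 2, its lowest library, the difference was -0.39 log2 (adjusted p = 0.24), and without any 1 vehicle library it was -0.75 to -0.83 log2 and did not pass either (adjusted p = 0.060 to 0.097). None of the 8 genes was called by limma with VD3 in osteogenic cells on day 7 (5.26% of all genes were called), on day 15 (0.773%) or in adipogenic cells (2.08%). At an unadjusted p below 0.05 the count was also 0 in each of these 3 states.

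Other imprinted genes reached 5 RPKM in a group at a share near that of all genes. Of 72 others on the list 69 were measured and 28 reached 5 RPKM in a group (40.6% of those measured, against 43.05% of all genes). In every group 16 did. At day 0 a value of 5 RPKM lies within the background. Its 95th percentile was 7.69 to 11.6 RPKM in the 5 day 0 libraries of high background. In the comparison of adipogenic with osteogenic cells on day 7, 6 rose and 17 fell of 59 tested, against 12.4% higher and 25.4% lower among all genes, and their median was -0.03 log2 (0.02 for all genes). The list was taken by name, and whether its genes are imprinted in these cells was not tested. The largest difference was that of Dcn, the small proteoglycan decorin, with 3.18 ± 0.424 RPKM in adipogenic and 81.7 ± 8.38 RPKM in osteogenic cells (-4.31 log2, adjusted p = 2.6e-15). Qpct, glutaminyl cyclase, came next, with 1.12 ± 0.233 and 38.8 ± 9.03 RPKM (-4.21 log2, adjusted p = 7.9e-15). Ndn, necdin, a MAGE family protein that restrains cell division, had 1.99 ± 0.161 and 15.4 ± 1.81 RPKM (-2.45 log2, adjusted p = 2.4e-13). Osbpl5, an oxysterol-binding protein relative from the domain of Cdkn1c, had 2.28 ± 0.394 and 6.57 ± 0.368 RPKM (-1.21 log2, adjusted p = 5.9e-08). Of the 6 that rose, Peg10, a retrotransposon-derived gene, had 7.17 ± 2.97 RPKM in adipogenic and 4.07 ± 0.597 RPKM in osteogenic cells (0.64 log2, adjusted p = 0.0083), named here after its values were seen.

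On osteogenic day 15 against day 7, 3 of the 59 rose and 5 fell, against 6.87% higher and 6.47% lower among all genes. Their median was -0.03 log2 (0 for all genes). Impact, a regulator of the amino acid-sensing kinase Gcn2, rose to 219 ± 18.0 RPKM against 116 ± 20.1 RPKM (0.92 log2, adjusted p = 0.00069), and Dcn to 118 ± 7.38 against 81.7 ± 8.38 RPKM (0.53 log2, adjusted p = 0.048). The call of Dcn did not pass when any 1 of the 6 libraries was left out (0.45 to 0.59 log2, adjusted p = 0.064 to 0.19). Blcap, a small protein named for its loss in bladder cancer, fell to 21.3 ± 1.65 against 33.5 ± 1.16 RPKM (-0.64 log2, adjusted p = 2.7e-05), and the flippase gene Atp10a to 2.67 ± 0.759 against 5.27 ± 0.423 RPKM (-0.79 log2, adjusted p = 0.0028), though Atp10a was at -0.29 log2 among VD3-treated libraries (adjusted p = 0.34). Impact was also among the largest changes of osteogenic day 15 from day 0, at 219 ± 18.0 RPKM against 89.6 ± 9.36 RPKM (1.28 log2, adjusted p = 3.9e-06).

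**Figure D4:**
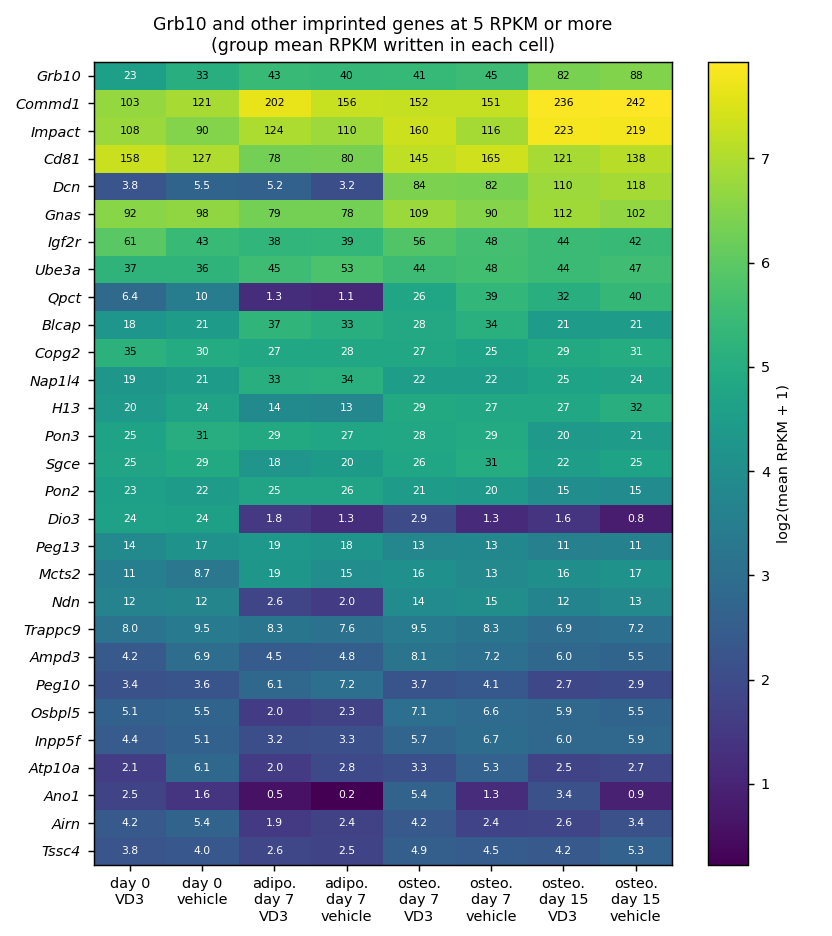
Group mean RPKM, written in each cell, of Grb10 and of the 28 other imprinted genes that reached 5 RPKM in a group; colour gives log2(mean RPKM + 1), columns are the 8 groups and rows below Grb10 are sorted by their highest group. Dcn and Qpct are high in the osteogenic columns (81.7 and 38.8 RPKM on day 7 with vehicle), and Dio3 in the day 0 columns (23.9 RPKM with VD3 and 23.5 RPKM with vehicle).

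Against day 0, 8 of the other imprinted genes rose and 27 fell on osteogenic day 7, 8 and 30 on osteogenic day 15, and 7 and 40 in adipogenic cells. Their medians were -0.38, -0.54 and -0.77 log2, beside -0.46, -0.55 and -0.83 log2 over all genes. The shares of all genes were 13.6% higher and 50.4% lower, 17.5% and 53.4%, and 13.2% and 65.5%. Among the 28 that passed a filter at 5 RPKM in 3 libraries, 7 rose and 3 fell, 7 and 7, and 6 and 15. The share of all genes at that filter is not given here, so these counts cannot be read as particular to imprinted genes. Dcn stood at 81.7 ± 8.38 RPKM on osteogenic day 7 against 5.47 ± 1.39 RPKM at day 0 (3.69 log2, adjusted p = 1e-12) and at 118 ± 7.38 RPKM on day 15 (4.23 log2, 3.3e-14). Qpct rose to 38.8 ± 9.03 RPKM on osteogenic day 7 against 10.03 ± 0.515 RPKM at day 0 (1.82 log2, adjusted p = 1.6e-07) and to 40.2 ± 1.40 RPKM on day 15 (1.90 log2, 3.7e-08). In adipogenic cells Qpct fell instead, to 1.12 ± 0.233 RPKM (-2.38 log2, adjusted p = 2.3e-10), as did Ndn, to 1.99 ± 0.161 against 12.3 ± 0.170 RPKM (-2.16 log2, adjusted p = 2.8e-12). Osbpl5 fell in adipogenic cells as well, to 2.28 ± 0.394 against 5.52 ± 0.431 RPKM (-0.995 log2, adjusted p = 1.3e-06), and turned to 0.14 log2 after background subtraction. Airn, the noncoding RNA antisense to Igf2r, fell to 2.42 ± 0.783 RPKM on osteogenic day 7 against 5.39 ± 1.60 RPKM (-0.89 log2, adjusted p = 0.033), but not without replicate 1 or 3 of day 0, or replicate 2 or 3 of osteogenic day 7 (-0.77 to -0.80 log2, adjusted p = 0.095 to 0.11). It turned to 0.95 log2 with the lone library of low background, and whether the counting kept its strand apart from Igf2r is not given in the sources used here.

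The direct neighbours of the low genes differed among domains. Copg2, a coat protein gene beside Mest, had 25.1 to 35.0 RPKM in every group. Igf2, the growth factor beside H19, was at 0.286 ± 0.131 RPKM in adipogenic and 1.86 ± 0.0745 RPKM in osteogenic day 7 vehicle libraries (-1.16 log2, adjusted p = 2.9e-05), lower in adipogenic cells as H19 was. From osteogenic day 7 to day 15 with vehicle the 2 genes went opposite ways. Igf2 averaged 1.86 and then 1.00 RPKM, and H19 0.933 and then 1.80 RPKM. Usp29 and Zim1, beside Peg3, had 0.163 to 2.96 RPKM by group, and Phlda2, beside Cdkn1c, 0 to 0.321 RPKM. Ddc, beside Grb10, was at 0.105 to 1.19 RPKM by group, far below Grb10.

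Of 17 genes around Dlk1 and Notch signalling 11 were tested. In adipogenic against osteogenic cells on day 7, 1 rose and 5 fell, beside 12.4% higher and 25.4% lower among all genes. Hes1, a transcriptional repressor induced by Notch, had 1.23 ± 0.436 and 14.9 ± 1.056 RPKM (-2.84 log2, adjusted p = 3.6e-12), and the receptor gene Notch2 had 7.19 ± 0.211 and 16.6 ± 1.33 RPKM (-1.10 log2, adjusted p = 2.5e-09). Fn1, fibronectin, which binds Dlk1, had 26.1 ± 9.22 and 222 ± 15.3 RPKM (-3.08 log2, adjusted p = 2.7e-14), and Adam17, the protease that sheds the Dlk1 ectodomain, 28.3 ± 1.42 and 18.5 ± 0.552 RPKM (0.59 log2, adjusted p = 3.5e-06). On osteogenic day 15 against day 7, 2 rose and 0 fell, against 6.87% higher and 6.47% lower among all genes. Jag1, a Notch ligand, had 13.3 ± 0.764 and 9.34 ± 0.906 RPKM (0.47 log2, adjusted p = 0.0034). This did not pass after median-ratio rescaling (0.44 log2, adjusted p = 0.054) and turned to -0.18 log2 among VD3-treated libraries.

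The 7 other genes listed as cyclin-dependent kinase inhibitors were all tested, and all reached 5 RPKM in a group. In adipogenic against osteogenic cells on day 7 (12.4% of all genes higher and 25.4% lower), 1 rose and 5 fell, led by Cdkn2b (33.0 ± 0.861 and 104 ± 6.66 RPKM, -1.62 log2, adjusted p = 2.1e-13) and Cdkn3, a kinase-associated phosphatase (1.86 ± 0.468 and 7.47 ± 2.75 RPKM, -1.52 log2, adjusted p = 0.044). The call of Cdkn3 did not pass without any 1 of 5 of the 6 libraries, all but osteogenic day 7 replicate 3 (-1.33 to -1.64 log2, adjusted p = 0.067 to 0.15). None was called on osteogenic day 15 against day 7 by limma, with 1 at an unadjusted p below 0.05. Of 6 genes listed with Peg3 and Plagl1, all tested, none was called in either comparison. At an unadjusted p below 0.05 the count was 0 in adipogenic against osteogenic cells and likewise on day 15 against day 7. Of 14 tested genes of imprint maintenance, 0 rose and 6 fell in adipogenic against osteogenic cells (12.4% and 25.4% of all genes) and 0 were called on day 15 against day 7, with 2 at an unadjusted p below 0.05. Those that fell include Uhrf1 (3.27 ± 0.198 and 22.8 ± 1.32 RPKM, -2.48 log2, adjusted p = 3e-14) and Dnmt1 (2.30 ± 0.171 and 8.41 ± 0.625 RPKM, -1.51 log2, adjusted p = 6.2e-10), which copy DNA methylation at replication, and Hells, a chromatin remodeller (2.68 ± 0.353 and 19.3 ± 1.87 RPKM, -2.46 log2, adjusted p = 1.2e-11). Trim28, the corepressor that protects imprints, had 10.6 ± 0.642 and 31.5 ± 2.43 RPKM (-1.49 log2, adjusted p = 4.1e-12).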

How the data were processed

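Ribosome-depleted, strand-directional RNA-seq of mouse marrow-derived MSC was used. The authors deposited one RPKM value per transcript and library, so reads were already scaled to transcript length and library size; RPKM per transcript was read from the file headers. TopHat and mm9 are named in the submitters' processing notes; the quantification tool, annotation and strand setting are not given in the sources used here. RPKM were summed by symbol, and 25 symbols turned into dates were dropped. Genes of at least 1 RPKM in at least 3 of 24 libraries were tested with limma 3.58.1 (R 4.3.3, statmod 1.5.0; Python 3.11.15 and pandas 2.3.3 for tables) on log2(RPKM + 1), with 8 group means in one fit, trended and robust variance, and Benjamini-Hochberg adjustment over all genes of a comparison. Read depth was estimated from the smallest steps of low values, of which 99.3% or more lay within 0.1 of a whole read; a floor of 3 reads equals 0.0642 to 0.421 RPKM for a transcript of 1 kb and covers counting error only. Replicates correlated at 0.926 to 0.993 and no 2 libraries of the same group were identical.

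The fit was tested on simulated data, with changes placed in genes averaging at least 5 RPKM and the same base level in all groups. That test therefore does not cover the low members or the day 0 background. The members and gene lists were chosen with earlier results of these data known. All members are named; of each list, up to 4 called genes with the largest change among those that reached 5 RPKM in whichever group was higher; and the 3 genes most correlated with a member of at least 5 RPKM. Alternatives were a pseudocount of 0.1, no filter or one at 5 RPKM, median-ratio rescaling, quantile normalization, the replicate number as a block, plain empirical Bayes, fits of the compared libraries alone, the largest transcript, background subtraction, VD3-treated libraries, a lone day 0 library of low background, and each library left out. Where a group holds a lone library, its spread is taken to equal that of the rest.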

Additional observations from a re-analysis of the deposited data

Results flagged for a closer look

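The effect of VD3 on Grb10 in adipogenic cells on day 7 differed from that at day 0. Grb10 had 42.5 ± 3.26 RPKM with VD3 and 40.1 ± 1.75 RPKM with vehicle in adipogenic cells, and 22.7 ± 1.79 RPKM with VD3 and 32.7 ± 1.89 RPKM with vehicle at day 0 (SD, n = 3 each). The difference of the 2 effects was 0.59 log2 (limma, adjusted p = 0.013), with a 95% interval of 0.31 to 0.86 log2. It was 0.70 log2 when replicate 2 alone stood for VD3 at day 0 and 0.58 log2 with quantile normalization (adjusted p = 0.0077). The 3 vehicle libraries of day 0 were among those of high background, while VD3 replicate 2 was not. The 0.70 log2 is therefore no check on the background. After subtraction of each library's background the difference was 0.56 log2 (adjusted p = 0.016). It did not pass after median-ratio rescaling (0.29 log2, adjusted p = 0.32).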

How the results depend on the processing

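Grb10 kept its rise on osteogenic day 15 against day 7 (0.90 to 1.02 log2) and its 3 rises against day 0 under every alternative run. H19 kept its lower level in adipogenic than in osteogenic cells under every alternative that tested it, which the filter at 5 RPKM did not. The counts below are of members called, in the order osteogenic day 7, osteogenic day 15 and adipogenic day 7 against day 0 (7, 7 and 8 in the fit reported), osteogenic day 15 against day 7 (2), adipogenic against osteogenic day 7 (2) and VD3 at day 0 (3). Osteogenic day 15 against day 7 gave 1 with a pseudocount of 0.1, no filter, median-ratio rescaling, the replicate number as a block, the compared libraries alone and VD3-treated libraries. A filter at 5 RPKM, which leaves Grb10 as the tested member, gave 1, 1, 1, 1, 0 and 1. Median-ratio rescaling gave 1 in adipogenic against osteogenic cells and 0 for VD3 at day 0 and for the difference of VD3 effects between adipogenic cells and day 0 (1 in the fit reported). Quantile normalization gave 3, 4 and 2 against day 0, 1 in adipogenic against osteogenic cells and 1 for VD3 at day 0. Background subtraction, which left Grb10, H19 and Mest as the tested members, gave 3, 3 and 1 against day 0 and 1 for VD3 at day 0. VD3-treated libraries gave 3 on osteogenic day 7 and 3 in adipogenic cells against day 0. With the lone day 0 library, Dlk1, Meg3, Rian, Peg3 and Plagl1 differed by -0.16 to 0.42 log2 against day 0, as given above. For VD3 at day 0 that library of low background stood against vehicle libraries of high background, so members called there are not counted. Plain empirical Bayes gave 1 and 2 for the differences of VD3 effects of osteogenic and adipogenic day 7 from day 0. The compared libraries alone gave 1 for VD3 at day 0. Leaving out 1 library gave 6 to 7, 6 to 7, 8 to 8, 1 to 1, 1 to 2 and 1 to 5, and 0 to 3 and 1 to 3 for the differences from day 0. Apart from the fewer genes of the filter, the cause was not tested.

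After each gene's group mean was taken off, same-numbered libraries correlated at -0.09 to 0.17. In no comparison did every sample correlate best with its own number. With 3 libraries per group this does not settle whether the numbers pair them. The replicate block gave 7, 7, 8, 1, 2 and 3 members, and 0 for VD3 in the differentiated states.

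Directions that turned, in log2, were as follows. With median-ratio rescaling, H19 on osteogenic day 7 against day 0 was 0.098, Mest on osteogenic day 15 against day 0 was 0.005382, Grb10 in adipogenic against osteogenic cells was 0.044 and Grb10 with VD3 in adipogenic cells was -0.001391. With quantile normalization, Dlk1, H19, Mest and Peg3 were 0.10, 0.91, 0.49 and 0.071 on osteogenic day 7, Dlk1 and Mest 0.056 and 0.78 on day 15, and Dlk1, H19, Mest and Plagl1 0.091, 0.032, 0.018 and 0.070 in adipogenic cells, against day 0. After background subtraction, Airn, H19 and Mest were 0.62, 0.67 and 1.31 on osteogenic day 7, Mest 1.67 on day 15, H19, Mest and Osbpl5 0, 0.36 and 0.14 in adipogenic cells, and H19 with VD3 at day 0 was 0. That setting put values below the background at 0, as all day 0 vehicle values of H19 and Mest were, so these genes could not fall against day 0. Among VD3-treated libraries, Airn and H19 were 0.078 and 0.75 on osteogenic day 7 against day 0, Jag1 and Mest -0.18 and -0.14 on day 15 against day 7, and Grb10 was 0.061 in adipogenic against osteogenic cells. With the lone day 0 library, Airn, Dlk1, H19, Meg3, Peg3 and Rian were 0.95, 0.17, 1.05, 0.29, 0.26 and 0.046 on osteogenic day 7, Meg3, Peg3 and Rian 0.0087, 0.34 and 0.16 on day 15, and Dlk1, H19, Meg3, Peg3, Plagl1 and Rian 0.20, 0.28, 0.24, 0.21, 0.17 and 0.42 in adipogenic cells. Of all values of single genes under the alternatives, 1204 kept direction and call, 111 kept direction only and 42 turned. Depth limits the low members: 3 reads at 1 kb were worth up to 0.421 RPKM.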
